A study of Mus musculus with 10 samples.

Results

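The core and primed pluripotency factors are 9 of the 34591 genes in the table of FPKM values (fragments scaled by exon length and library total), selected by symbol alone: *Pou5f1*, *Sox2*, *Nanog*, *Sall4*, *Utf1*, *Otx2*, *Pou3f1*, *Fgf5* and *Zic2*. All 9 were found, each in 1 row. RNA-seq was performed in male C57/BL6 Bruce-4 mESCs (mouse embryonic stem cells) with 2 libraries from each of 5 lines. The WT line was compared with 2 clones lacking *Dnttip1*, D2A7 and D1E6 (*Dnttip1* KO), and 2 lacking *Elmsan1*, E2E8 and E2G7 (*Elmsan1* KO). Both targeted genes encode subunits of MiDAC, the mitotic histone deacetylase complex. Each clone grew from a single sorted cell after CRISPR/Cas9 editing, and all lines, WT included, were kept in serum-free 2iL medium, which holds LIF, the GSK3 inhibitor CHIR99021 and the MEK inhibitor PD0325901. A KO group of 4 libraries therefore holds 2 clones, and a p-value of a KO comparison measures the spread between libraries of which pairs share a clone. Nothing in the sources states whether the 2 libraries of a line came from separate cultures. The question for these genes is whether loss of either subunit changes the RNA of the factors that hold or leave the naive state.

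In mouse ESCs, the transcription factors OCT4 (the product of *Pou5f1*), SOX2 and NANOG bind together at enhancers and sustain the expression of one another. OCT4 and SOX2 do so as partners on adjacent octamer and SOX sequences. When cells leave the naive state for the formative and then the primed epiblast, OTX2 and POU3F1 (OCT6) direct OCT4 to new enhancers, *Fgf5* and *Zic2* are switched on and *Nanog* falls for a time. Blocking MEK and GSK3, as in 2iL medium, holds cells in the naive state.

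Promoter sequences are shown for *Nanog* and *Sox2*, the core factors that were lower than in WT in every KO library, and for *Otx2*, which had the largest difference between lines. *Zic2* and, near the floor, *Fgf5* were also lower in every KO library and are not printed. RefSeq (GRCm38.p6) promoter windows of 300 bases, from 250 before to 50 after a transcript start, were at hand for 6 of the 9 genes, in 11 windows. Each of the 11 has 1 exact match in NCBIM37, the build of the deposited values, which gave the positions below. *Sall4*, *Pou3f1* and *Zic2* have no entry. A pair of short motifs was searched on both strands, the octamer-type ATGCAAA and the SOX-type ACAATG, which share no overlapping match here. Capitals mark the matches.
*Nanog*, chr6:122657257-122657556, + strand: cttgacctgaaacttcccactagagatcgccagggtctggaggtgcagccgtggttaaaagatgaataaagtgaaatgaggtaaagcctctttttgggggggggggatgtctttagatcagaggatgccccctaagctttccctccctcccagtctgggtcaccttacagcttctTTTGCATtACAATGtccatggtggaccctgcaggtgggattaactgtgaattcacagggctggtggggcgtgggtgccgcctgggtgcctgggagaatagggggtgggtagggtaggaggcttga
*Sox2*, chr3:34548667-34548966, + strand: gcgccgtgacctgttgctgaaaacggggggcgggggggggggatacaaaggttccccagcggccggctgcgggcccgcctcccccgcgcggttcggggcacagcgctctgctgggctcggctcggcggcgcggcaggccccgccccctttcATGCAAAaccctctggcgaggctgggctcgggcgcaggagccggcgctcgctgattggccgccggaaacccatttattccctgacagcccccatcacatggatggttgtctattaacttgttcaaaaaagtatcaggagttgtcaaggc
*Otx2*, chr14:49287134-49287433, - strand: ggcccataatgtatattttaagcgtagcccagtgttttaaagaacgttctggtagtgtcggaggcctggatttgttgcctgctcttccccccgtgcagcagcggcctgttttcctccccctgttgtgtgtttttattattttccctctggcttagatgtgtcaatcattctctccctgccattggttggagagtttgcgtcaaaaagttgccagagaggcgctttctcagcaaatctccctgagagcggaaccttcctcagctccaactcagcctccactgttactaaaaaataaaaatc
In the *Nanog* window, ATGCAAA on the opposite strand (printed TTTGCAT) begins at position -75 from the transcript start and is followed after 1 base by ACAATG at -67. The *Sox2* window holds ATGCAAA at -99 and no ACAATG, and none of the 4 *Otx2* windows holds either motif. The only windows of *Utf1* and *Fgf5* hold neither, and 1 of the 2 *Pou5f1* windows holds ACAATG. Over 32851 RefSeq windows of the same length, ATGCAAA occurs in 4.63%, ACAATG in 12.6%, and both within 3 bases of each other in 6 windows (0.0183%). Of these 6, 2 are the overlapping *Nanog* windows, which hold the same pair. These are matches of letters and not measured binding.

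The libraries held from 31098269 to 86463773 fragments, computed from the steps of the FPKM values, and the KO libraries were all deeper than both WT libraries. *Dnttip1* was at 8.15 and 8.43 FPKM in WT, 4.57 and 4.56 in D2A7 and 2.59 and 2.63 in D1E6 (adjusted p = 0.0471 in *Dnttip1* KO, a call lost without either WT library). *Elmsan1*, which the table lists as *C130039O16Rik*, was at 5.53 and 5.39 FPKM in WT and from 4.62 to 5.18 in the *Elmsan1* KO libraries (adjusted p = 0.188), so its RNA level gave no check of those labels. In the *Dnttip1* KO libraries *Elmsan1* was at 7.79 to 8.68 FPKM and was called higher than in WT (0.59, adjusted p = 0.00973). That call was lost in 6 of 17 alternatives. *Dnttip1* KO was above *Elmsan1* KO by 0.78 (adjusted p = 0.0128). The labelled cell type was checked by its markers. *Nanog*, *Pou5f1* and *Sox2* ranked 208, 225 and 373 by FPKM in WT among all genes, while 5 of 8 fibroblast markers were under 0.1 FPKM in every library and the 8 summed to between 1.75 and 4.01 FPKM. Of the markers of other cell types, 2 of 9 for primitive endoderm (*Gata6* and *Foxa2*), 2 of 7 for trophoblast (*Elf5* and *Hand1*), 2 of 7 for mesendoderm (*Foxa2* and *Mesp1*) and 3 of 7 for neural cells (*Pax6* and *Dcx* among them) were also under 0.1 FPKM throughout. Others on these lists were expressed in every library, among them *Lama1* (16.7 to 30.0 FPKM), *Tfap2c* (23.1 to 36.5), *Tubb3* (44.3 to 87.2) and *Nes* (3.99 to 13.0).

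FPKM is corrected for exon length, so it orders the 9 genes within a library. The core factors *Nanog* (320 ± 9.27 FPKM in WT, SD, n = 2), *Pou5f1* (303 ± 9.15) and *Sox2* (184 ± 4.63) stood at the top. *Sall4* followed at 56.5 ± 2.60, then *Utf1* at 12.8 ± 0.924, *Zic2* at 11.6 ± 0.526 and *Otx2* at 11.0 ± 0.202. *Pou3f1* (0.279 ± 0.00707) and *Fgf5* (0.0638 ± 0.000723) were near the floor. The top 3 factors thus exceeded every primed gene of the group by more than an order of magnitude in WT cells.

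**Figure D1:**
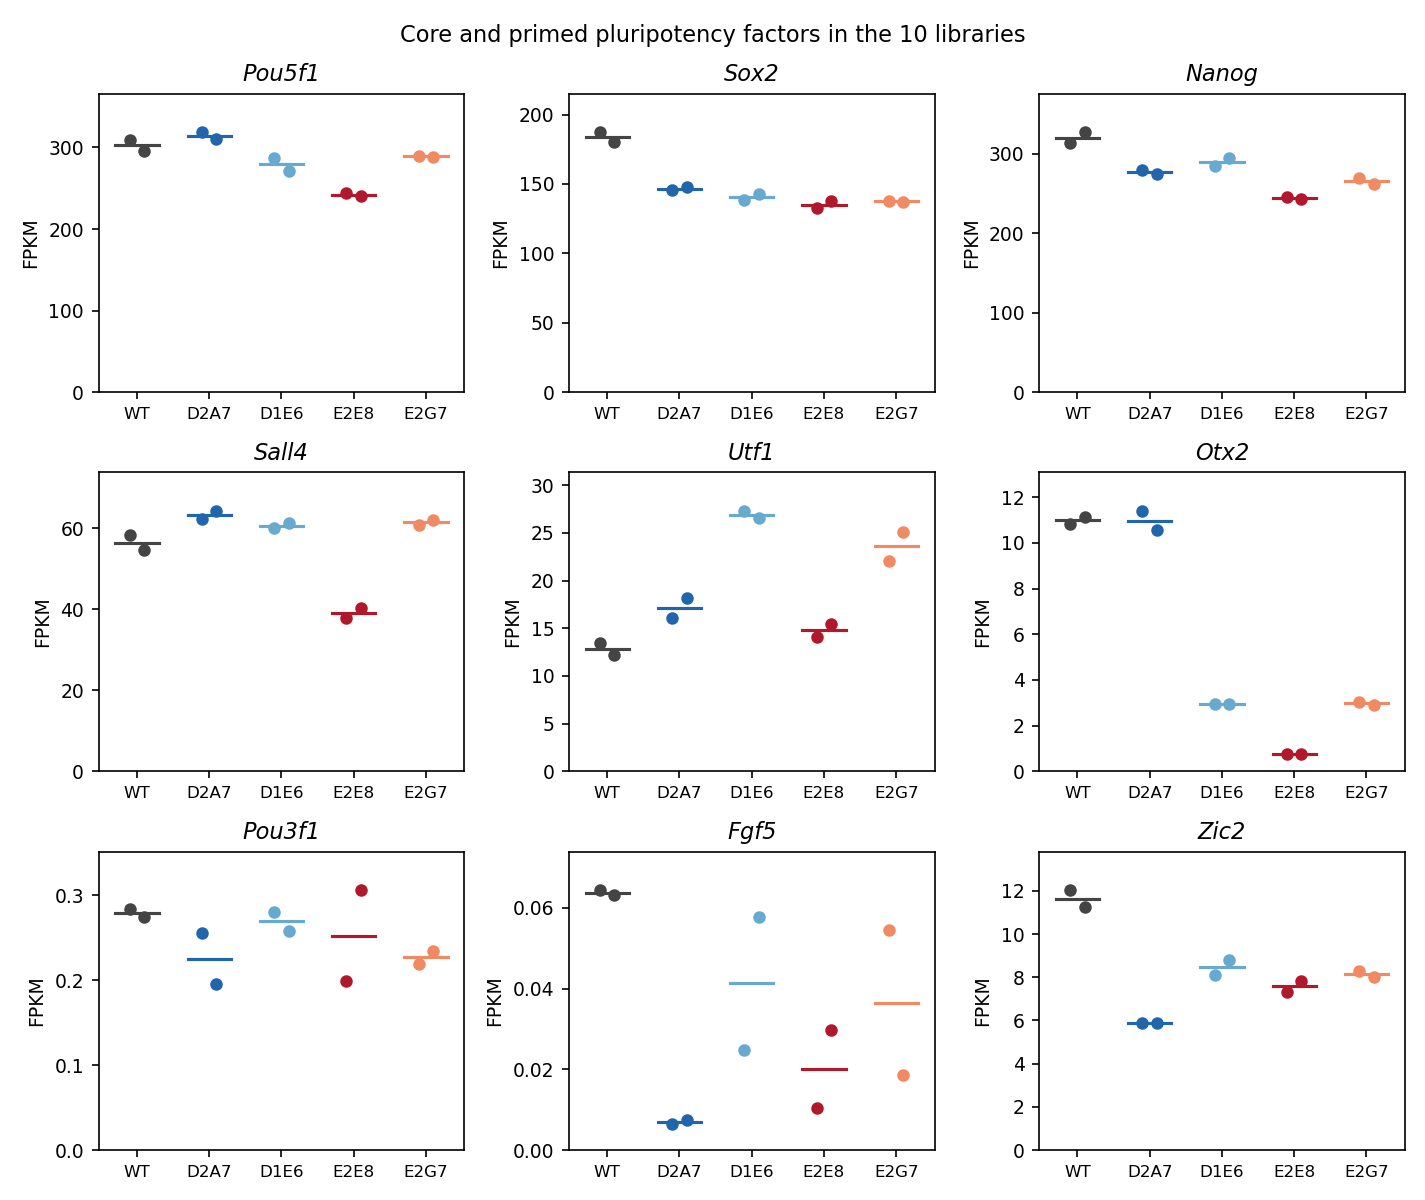
FPKM (y axis, from 0, a separate scale for each gene) of the 9 factors in the 5 lines (x axis); each point is 1 library and each bar the mean of 2. *Otx2* lies between 10.6 and 11.4 in WT and D2A7, near 3 in D1E6 and E2G7 and under 1 in E2E8. *Sox2*, *Nanog*, *Zic2* and, near the floor, *Fgf5* lie below both WT libraries in every KO library.

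Of the 9 genes, 8 passed the filter of 0.1 FPKM in 2 libraries and were tested, and *Fgf5* did not. In *Dnttip1* KO against WT, 1 of the 8 passed the study's thresholds of a 1.5-fold change and an unadjusted p under 0.01. This was *Zic2*, which was lower. Of all 17438 genes tested, 3.26% were called higher and 3.25% lower. In *Elmsan1* KO, 1 of 8 was called, *Otx2*, which was also lower, beside 2.74% of 17215 genes called higher and 3.68% lower. When the fold was disregarded, 1 of 8 factors (*Sox2*) had an adjusted p under 0.05 in *Dnttip1* KO, where 9.47% of all genes did. In *Elmsan1* KO it was 4 of 8 (*Sox2*, *Nanog*, *Otx2* and *Zic2*), with 10.5% of all genes. With an estimated correlation between libraries of a clone, 0 of the 8 factors had an adjusted p under 0.05 in either knockout, and of all genes 57 in *Dnttip1* KO and 64 in *Elmsan1* KO did. There the adjusted p in *Elmsan1* KO was 0.167 for *Sox2*, 0.217 for *Nanog*, 0.137 for *Otx2* and 0.190 for *Zic2*, *Otx2* still met the study's thresholds, and the *Zic2* call in *Dnttip1* KO was lost (adjusted p = 0.223). All tests across genes are limma's two-sided moderated test on log2(FPKM + 0.1), adjusted by Benjamini-Hochberg over all genes tested, and changes on this scale understate those of low genes. In bulk RNA, fewer cells that express a gene and less RNA per cell cannot be told apart.

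Among the core factors, *Sox2* had the steadiest change across clones. *Sox2* (ENSMUSG00000074637, chr3:34548927-34551383, + strand) encodes the SOX partner of OCT4. Its FPKM was 187 and 181 in WT, 145 and 148 in D2A7, 138 and 143 in D1E6, 132 and 138 in E2E8, and 138 and 137 in E2G7. All 8 KO libraries were below both WT libraries, and the clones covered a narrow range from 72.0% to 78.6% of WT. The log2 fold change was -0.38 in *Dnttip1* KO (SE 0.0560, adjusted p = 0.0157) and -0.46 in *Elmsan1* KO (SE 0.0535, adjusted p = 0.00726), under the 1.5-fold threshold in both. With an estimated correlation within clones the adjusted p was 0.174 and 0.167, and with the replicate number as a block 0.0551 and 0.0334. No difference was detected between the knockouts (0.073, 95% interval from -0.027 to 0.17) or between the clones of either (0.073 from -0.023 to 0.17 for D2A7 against D1E6, and -0.035 from -0.13 to 0.060 for E2E8 against E2G7). The long non-coding *Sox2ot* overlaps *Sox2* on the same strand, and its mean was 0.333 FPKM in WT and from 0.208 to 0.267 in the clones.

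*Nanog* was also lower in all 8 KO libraries. *Nanog* (ENSMUSG00000012396, chr6:122657507-122664651, + strand) encodes the homeodomain factor of the naive network. It was at 314 and 327 FPKM in WT, 279 and 275 in D2A7, 285 and 295 in D1E6, 245 and 243 in E2E8, and 270.2 and 262 in E2G7. The groups did not overlap, and the levels were from 74.7% to 88.5% of WT by clone. The change was -0.20 in *Dnttip1* KO (SE 0.0485, adjusted p = 0.0539) and -0.35 in *Elmsan1* KO (SE 0.0664, adjusted p = 0.0241, or 0.0710 with the replicate block). The 541 other chromosome 6 genes that averaged 1 FPKM or more had a median log2 difference from WT of -0.082 in D2A7, 0.42 in D1E6, 0.39 in E2E8 and 0.29 in E2G7. Over all genes at that level the medians were near 0. Nearer to *Nanog*, the 13 genes at that level within 1 Mb had medians of -0.067, 0.010, 0.27 and 0.029 in the same order. *Nanog* was thus below WT in 3 clones in which the median of these chromosome 6 genes was above WT. The part of this chromosome-wide shift in the *Nanog* level was not tested.

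*Pou5f1* differed less. *Pou5f1* (ENSMUSG00000024406, chr17:35642982-35647721, + strand) encodes OCT4, the POU factor on which pluripotency depends. Its FPKM was 309 and 296 in WT, 318 and 309.8 in D2A7, 287 and 271 in D1E6, 244 and 240.4 in E2E8, and 289 and 289 in E2G7. In these deposited values D2A7 was above both WT libraries and the other clones below both. After rescaling by the median-ratio factors D2A7 (318 and 309.4) lay between the WT libraries (321 and 294). Neither knockout differed from WT by the test (-0.058 and adjusted p = 0.702 in *Dnttip1* KO, -0.22 and adjusted p = 0.241 in *Elmsan1* KO). In the fit of all 5 lines, E2E8 had a log2 fold change of -0.35 (adjusted p = 0.000734). The ratio of *Pou5f1* to *Sox2*, both per length, was 1.65 and 1.64 in the WT libraries and from 1.74 to 2.19 in the 8 KO libraries. *Pou5f1* and *Nanog* have pseudogene copies in the mouse genome, and how fragments that fit several copies were counted is not stated.

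*Sall4* separated 1 clone from all other lines. *Sall4* (ENSMUSG00000027547, chr2:168573832-168593443, - strand) encodes a zinc finger protein that acts with OCT4 and NANOG. It was at 58.3 and 54.6 FPKM in WT, 62.4 and 64.2 in D2A7, 60.0 and 61.4 in D1E6, 37.8 and 40.3 in E2E8, and 60.9 and 62.0 in E2G7. Only the E2E8 libraries were below WT, at 67.7% of its level (log2 fold change -0.56, SE 0.0523, adjusted p = 8.96e-05, just short of the 1.5-fold threshold), and the other clones were slightly above. E2E8 differed from E2G7 by -0.66 (95% interval from -0.79 to -0.54), which passed the thresholds. With both clones pooled, *Elmsan1* KO gave -0.23 ± 0.236 (SE) and an adjusted p of 0.567. The lincRNA *Gm14261* lies on the opposite strand of *Sall4*, with line means from 0.165 to 0.294 FPKM.

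*Utf1* was the only one of the 9 that was higher in all 8 KO libraries than in both WT libraries. *Utf1* (ENSMUSG00000047751, chr7:147129688-147131011, + strand) encodes a chromatin factor bound by OCT4 and SOX2 at its enhancer. Its FPKM was 13.5 and 12.2 in WT, 16.1 and 18.2 in D2A7, 27.3 and 26.6 in D1E6, 14.1 and 15.5 in E2E8, and 22.1 and 25.1 in E2G7. D1E6 and E2G7, 1 clone of each knockout, were highest, at 2.05 and 1.81 times WT. The KO comparisons gave 0.71 (SE 0.238, adjusted p = 0.120) and 0.51 (SE 0.250, adjusted p = 0.236), so neither passed. By clone, D1E6 rose by 1.03 and E2G7 by 0.86 on the log2 scale (adjusted p = 0.000117 and 0.000321), while D2A7 was at 0.39 (adjusted p = 0.0103) and E2E8 at 0.17 (adjusted p = 0.162). The clones of a knockout differed from each other by -0.64 for D2A7 against D1E6 and by -0.68 for E2E8 against E2G7, and both differences passed the thresholds with all libraries.

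*Otx2* had the widest range of the 9 genes. *Otx2* (ENSMUSG00000021848, chr14:49277354-49287319, - strand) encodes the homeodomain factor that drives the exit from the naive state. It was at 10.8 and 11.1 FPKM in WT, 11.4 and 10.6 in D2A7, 2.93 and 2.93 in D1E6, 0.742 and 0.772 in E2E8, and 3.04 and 2.90 in E2G7. D2A7 overlapped WT, D1E6 and E2G7 overlapped each other at 26.1% and 26.7% of WT, and E2E8 was lowest at 6.75% of WT (14.8-fold lower). These levels rest on 176 to 2401 fragments per library. In *Elmsan1* KO, *Otx2* fell by 2.80 on the log2 scale (SE 0.641, adjusted p = 0.0435). Without WT library 1 or WT library 2 the unadjusted p was above 0.01 and the call was lost (adjusted p = 0.236 and 0.213). In *Dnttip1* KO the mean change of -0.96 had an SE of 0.658 (adjusted p = 0.396), with 1 clone at the WT level and the other far below it.

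The line means of *Otx2* spanned 3.72 on the log2 scale, and 25 of the 12215 genes that averaged 1 FPKM or more spanned wider. The median gene spanned 0.43 and varied within a line with an SD of 0.0546. *Utf1* spanned 1.03, *Zic2* 0.995, *Sall4* 0.70, *Sox2* 0.47, *Nanog* 0.42 and *Pou5f1* 0.38. The 6 other genes within 1 Mb of *Otx2* that averaged 1 FPKM or more had median log2 differences from WT between -0.13 and -0.047 in the 4 clones. None of the 6 was below -0.34. The drop in *Otx2* was thus not shared by these 6 neighbours on chromosome 14, and neighbours with lower levels were not examined.

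*Zic2* was lower than WT in every clone. *Zic2* (ENSMUSG00000061524, chr14:122874604-122879074, + strand) encodes a zinc finger factor of the primed epiblast and the neural plate. It was at 12.0 and 11.3 FPKM in WT, 5.87 and 5.87 in D2A7, 8.11 and 8.81 in D1E6, 7.34 and 7.85 in E2E8, and 8.30 and 8.03 in E2G7. No KO library reached the lower WT library, and D2A7 was lowest, the clone in which *Otx2* was at the WT level. The change was -0.74 in *Dnttip1* KO (SE 0.190, adjusted p = 0.0634), which met the study's thresholds. It was -0.58 in *Elmsan1* KO (SE 0.0805, adjusted p = 0.0108), just short of the 1.5-fold threshold of 0.585. The call in *Dnttip1* KO was lost without WT library 1, WT library 2 or either D2A7 library, with adjusted p-values of 0.325, 0.229, 0.107 and 0.114.

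*Pou3f1* and *Fgf5*, which mark the formative epiblast, were barely detected. *Pou3f1* (ENSMUSG00000078236, chr4:124334896-124337899, + strand) encodes OCT6, the POU factor that works with OTX2. Its FPKM was 0.284 and 0.274 in WT, 0.255 and 0.195 in D2A7, 0.280 and 0.258 in D1E6, 0.199 and 0.306 in E2E8, and 0.219 and 0.234 in E2G7. The lines overlapped in a chain, and no difference was detected (-0.15 with a 95% interval from -0.59 to 0.29 in *Dnttip1* KO, -0.19 from -0.65 to 0.28 in *Elmsan1* KO). The *Pou3f1* values were whole fragments at an exon length of 3850 bases and not at the annotated 3004, which gives 34 to 79 fragments per library. In GENCODE a pseudogene model with the same name (ENSMUSG00000090125, chr4:124334889-124337899) overlaps *Pou3f1* on its strand, and how shared fragments were counted is not stated.

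*Fgf5* (ENSMUSG00000029337, chr5:98683203-98706049, + strand), a secreted growth factor and a classical marker of the primed epiblast, was under 0.1 FPKM in all 10 libraries. It had 5 and 6 fragments in WT, 1 and 1 in D2A7, 3 and 9 in D1E6, 2 and 5 in E2E8, and 11 and 4 in E2G7. Relative to the summed fragments of the 2 libraries of each line, the *Fgf5* rate in D2A7 was 0.109 of WT (exact 95% interval from 0.0117 to 0.499, counting error only) and in E2E8 0.307 (from 0.101 to 0.868). For D1E6 the ratio was 0.681 (from 0.275 to 1.70) and for E2G7 0.563 (from 0.242 to 1.36), so a difference from WT was not detectable at this depth. With 1 to 11 fragments per library these ratios compare libraries and not conditions.

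The clones were then compared in a single fit of all 10 libraries with a mean for each line. D2A7 had 1 of 8 factors called against WT (*Zic2*, -0.995), where 16.3% of 17872 genes were called. D1E6 had 2 (*Otx2*, -1.90, and *Utf1*, 1.03), with 11.0% of all genes. E2E8 had 2 (*Otx2*, -3.72, and *Zic2*, -0.64), with 16.1% of all genes. E2G7 had 2 (*Otx2*, -1.87, and *Utf1*, 0.86), with 9.95% of all genes. *Zic2* in D1E6 (-0.49) and E2G7 (-0.52) missed the fold threshold, with adjusted p-values of 0.000591 and 0.000433. The *Zic2* call in E2E8 was lost without WT library 1 (-0.56). These contrasts share the WT libraries, and they rest on the spread between 2 libraries of a line. The called genes of D1E6 and E2G7, which carry different knockouts, were *Otx2* and *Utf1* in both. The share of all genes called in both of these clones was not computed, so this overlap is only a description.

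**Figure D2:**
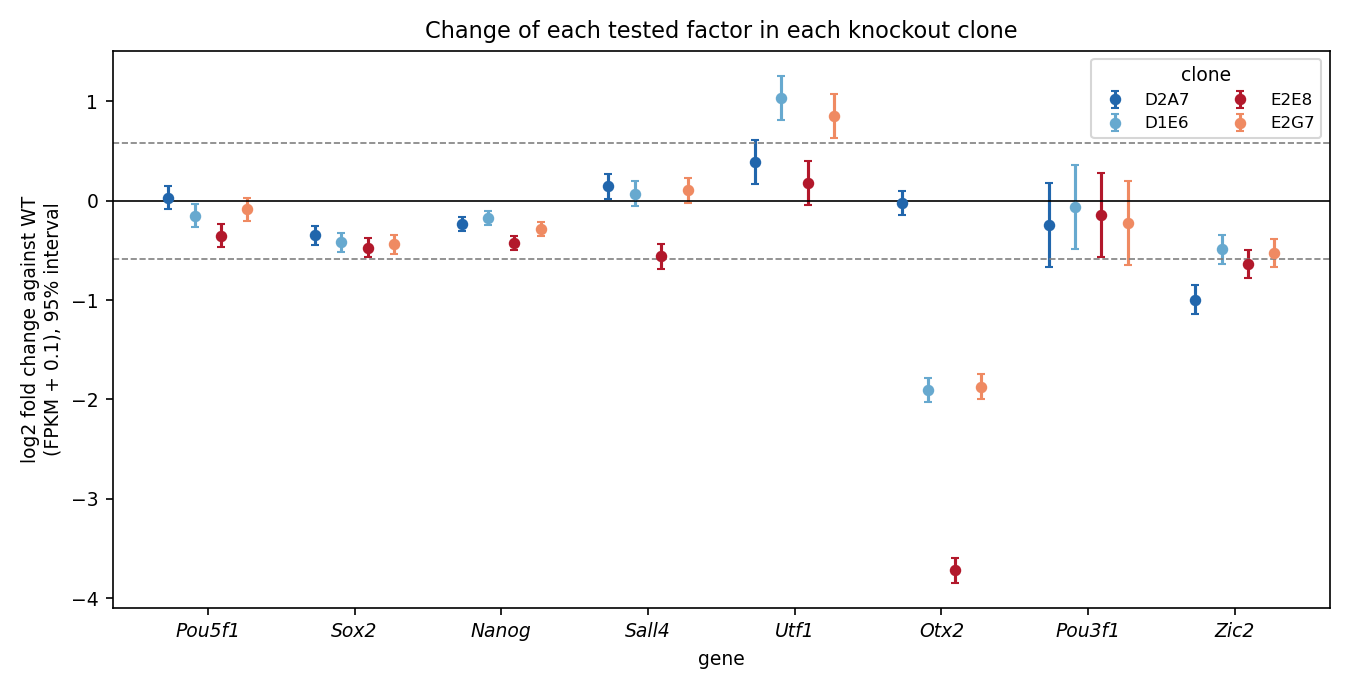
Log2 fold change against WT (y axis) of the 8 tested factors (x axis) in the 4 clones, with 95% intervals from the fit of all 10 libraries; dashed lines mark a 1.5-fold change. *Otx2* is near 0 in D2A7 and at -3.72 in E2E8, and *Sox2* in all clones lies between -0.47 and -0.35.

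Clones of the same knockout differed in several of the 8 factors. For D2A7 against D1E6, 2 were called, *Otx2* (1.88, higher in D2A7) and *Utf1* (-0.64), where 13.1% of all genes were called. The *Utf1* call was lost without D2A7 library 1 (-0.55). *Zic2* was lower in D2A7 by -0.51 (adjusted p = 0.000418), under the fold threshold. For E2E8 against E2G7, 3 were called, *Otx2* (-1.85), *Utf1* (-0.68) and *Sall4* (-0.66), all lower in E2E8, where 12.5% of all genes were called. *Dnttip1* KO against *Elmsan1* KO gave 0 called factors with limma and 0 with voom on recovered fragments, where 1.52% of 17590 genes were called. Its error includes the spread between clones (SE 0.636 for *Otx2*), while the clone contrasts use only the spread within a line (SE 0.0524). The counts of calls therefore do not compare the sizes of the differences. Between the knockouts, 2 factors had an unadjusted p under 0.05, *Otx2* (1.83, adjusted p = 0.296) and *Nanog* (0.15, adjusted p = 0.296).

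Genes with a pattern over the 5 line means most like that of a factor were sought for the factors whose line means spanned at least 1, using the root mean square difference after each gene was centred on its own mean. For *Utf1* these were *Myl7* (0.0870), *Fam129b* (0.103) and *Sh3rf2* (0.106), and all 3 were highest in D1E6 or E2G7. For *Otx2* they were *Ephx2* (0.460), *2210409E12Rik* (0.461) and *Gm15698* (0.481). The *Otx2* matches were less close, since *Ephx2*, *2210409E12Rik* and *Gm15698* were above WT in D2A7, by 1.04, 0.87 and 1.33, where *Otx2* was at -0.023. The span of *Zic2* was just short of 1, so none was sought for it. This likeness over 5 lines is a description.

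**Figure D3:**
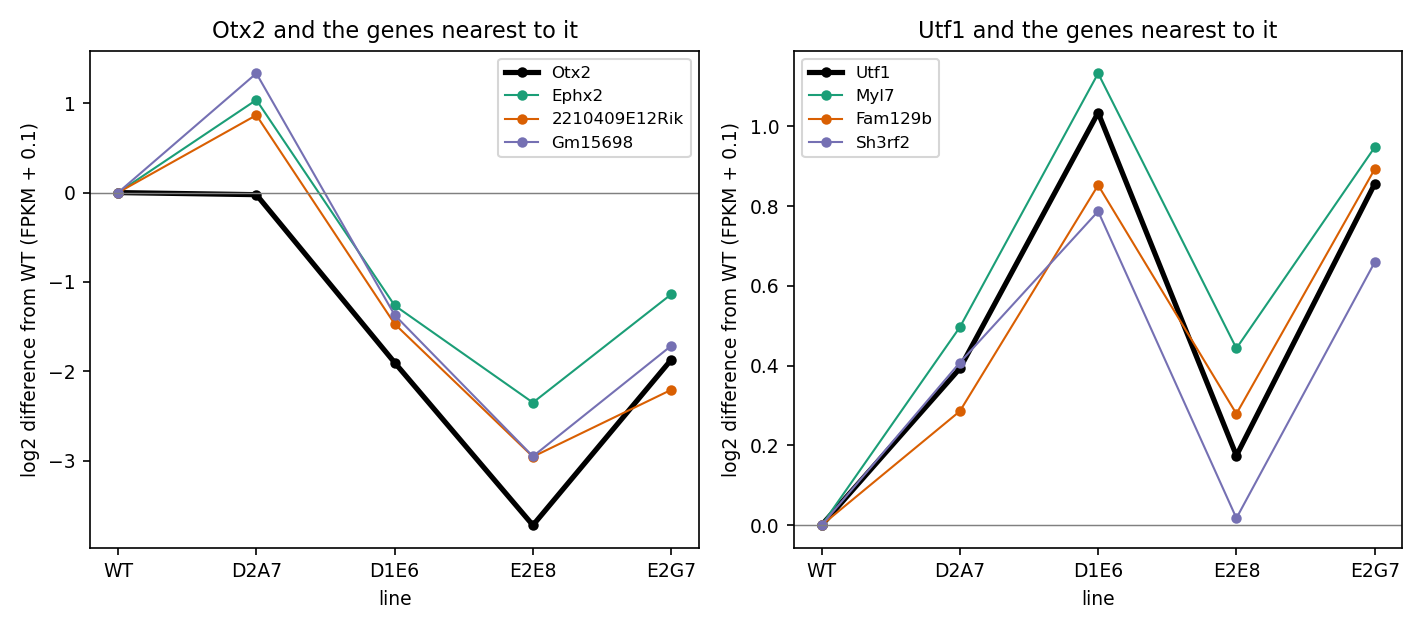
Log2 difference from WT (y axis) over the 5 lines (x axis) for *Otx2* and *Utf1* (thick) and the 3 genes nearest to each (thin). The genes nearest to *Otx2* rise above WT in D2A7, unlike *Otx2*, and those nearest to *Utf1* share its peaks in D1E6 and E2G7.

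The other genes of the network were read from lists. Of the genes named from them that were called, 16 in *Dnttip1* KO and 18 in *Elmsan1* KO, the call of 5 in each was lost with an estimated correlation between libraries of a clone. A kept call met the threshold on the unadjusted p. With that correlation only *Cdh1* (0.0492) and *Tcl1* (0.0322) in *Dnttip1* KO and *Cdh1* (0.0484) in *Elmsan1* KO had an adjusted p under 0.05. Of 18 tested partners of the core factors, 2 rose and 0 fell in each knockout, *Epcam* and *Cdh1*, which encode epithelial adhesion molecules. *Cdh1* was at 98.4 and 99.7 FPKM in WT and from 153 to 162 in the KO libraries (log2 fold changes 0.63 and 0.62, adjusted p = 0.00331 and 0.00227). *Epcam* was at 34.6 and 34.7 FPKM in WT and from 49.8 to 81.8 in the KO libraries. The list's median change was 0.13 in *Dnttip1* KO and -0.084 in *Elmsan1* KO, beside 0.024 and 0.00302 over all genes tested. Of all genes tested, 3.26% were called higher and 3.25% lower in *Dnttip1* KO, and 2.74% and 3.68% in *Elmsan1* KO. By clone against WT, 1 rose and 1 fell in D2A7 (16.3% of all genes called), and 3 and 0 in D1E6 (11.0%). In E2E8 2 rose and 3 fell (16.1%), and in E2G7 3 and 1 (9.95%). In E2E8 against E2G7, 0 were higher and 6 lower (12.5%), with a list median of -0.45 beside 0.048 over all genes. In D2A7 against D1E6, 0 were higher and 4 lower (13.1%).

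Of 29 tested primed and formative epiblast genes, 2 rose and 6 fell in *Dnttip1* KO, and 1 rose and 5 fell in *Elmsan1* KO. Among all genes, 3.26% were called higher and 3.25% lower in *Dnttip1* KO, and 2.74% and 3.68% in *Elmsan1* KO. The list's median changes were -0.14 and -0.27, beside 0.024 and 0.00302 over all genes. *Fgf15*, an FGF of the epiblast and midline, fell from 0.675 and 0.598 FPKM in WT to between 0.109 and 0.247 in the KO libraries (-1.41 and -1.54, adjusted p = 0.00845 and 0.0179), although the *Elmsan1* KO call was lost with an estimated correlation within clones (adjusted p = 0.222) and both calls with a pseudocount of 1 FPKM. *Cdh2*, which encodes N-cadherin, fell from 1.73 and 1.92 FPKM to between 0.525 and 0.832 (adjusted p = 0.00759 and 0.00938). With the estimated correlation within clones its calls were kept, at an adjusted p of 0.114 and 0.106. Both cadherins thus met the study's thresholds, in opposite directions, in both knockouts. *Tcf15*, a bHLH gene of early priming, was called lower by -1.21 and -1.52, *Sfrp2*, a WNT antagonist, by -1.25 and -0.94, and *Pim2*, a kinase gene, by -0.70 and -0.66. With the estimated correlation the calls of *Tcf15* (adjusted p = 0.586 and 0.381) and *Sfrp2* (adjusted p = 0.265 and 0.264) were lost in both knockouts. *Tcf15* was lost in *Dnttip1* KO in 10 of 16 alternatives, among them without either WT or either D2A7 library, and in *Elmsan1* KO without WT library 1, and *Sfrp2* was lost in 12 and 4 of 17 alternatives, among them without either WT library in both. *Cldn6*, a claudin gene, rose from 11.9 and 11.3 FPKM to between 17.8 and 28.1, and its call in *Dnttip1* KO was lost without either WT library. *Pou2f3* rose in *Dnttip1* KO (1.03, adjusted p = 0.0476) and was at 0.23 (adjusted p = 0.721) in *Elmsan1* KO, and the difference between the knockouts was 0.80 (adjusted p = 0.296, not called). The *Pou2f3* call was lost in 4 of 17 alternatives, among them without either WT library.

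Of 18 naive pluripotency genes, 1 rose (*Tcl1*) and 1 fell (*Socs3*) in each knockout. Among all genes, 3.26% were called higher and 3.25% lower in *Dnttip1* KO, and 2.74% and 3.68% in *Elmsan1* KO. The list's median changes were -0.087 and -0.22, beside 0.024 and 0.00302 over all genes. *Tcl1*, a coactivator of AKT, went from 23.1 and 24.2 FPKM in WT to between 34.9 and 56.6 in the KO libraries. *Socs3*, a target and inhibitor of LIF signalling, went from 38.9 and 36.8 FPKM to between 19.6 and 24.2. By clone against WT, 2 naive genes rose and 2 fell in D2A7 (16.3% of all genes called), and 1 and 1 in D1E6 (11.0%). In E2E8 0 rose and 4 fell (16.1%), and in E2G7 1 and 1 (9.95%).

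**Figure D4:**
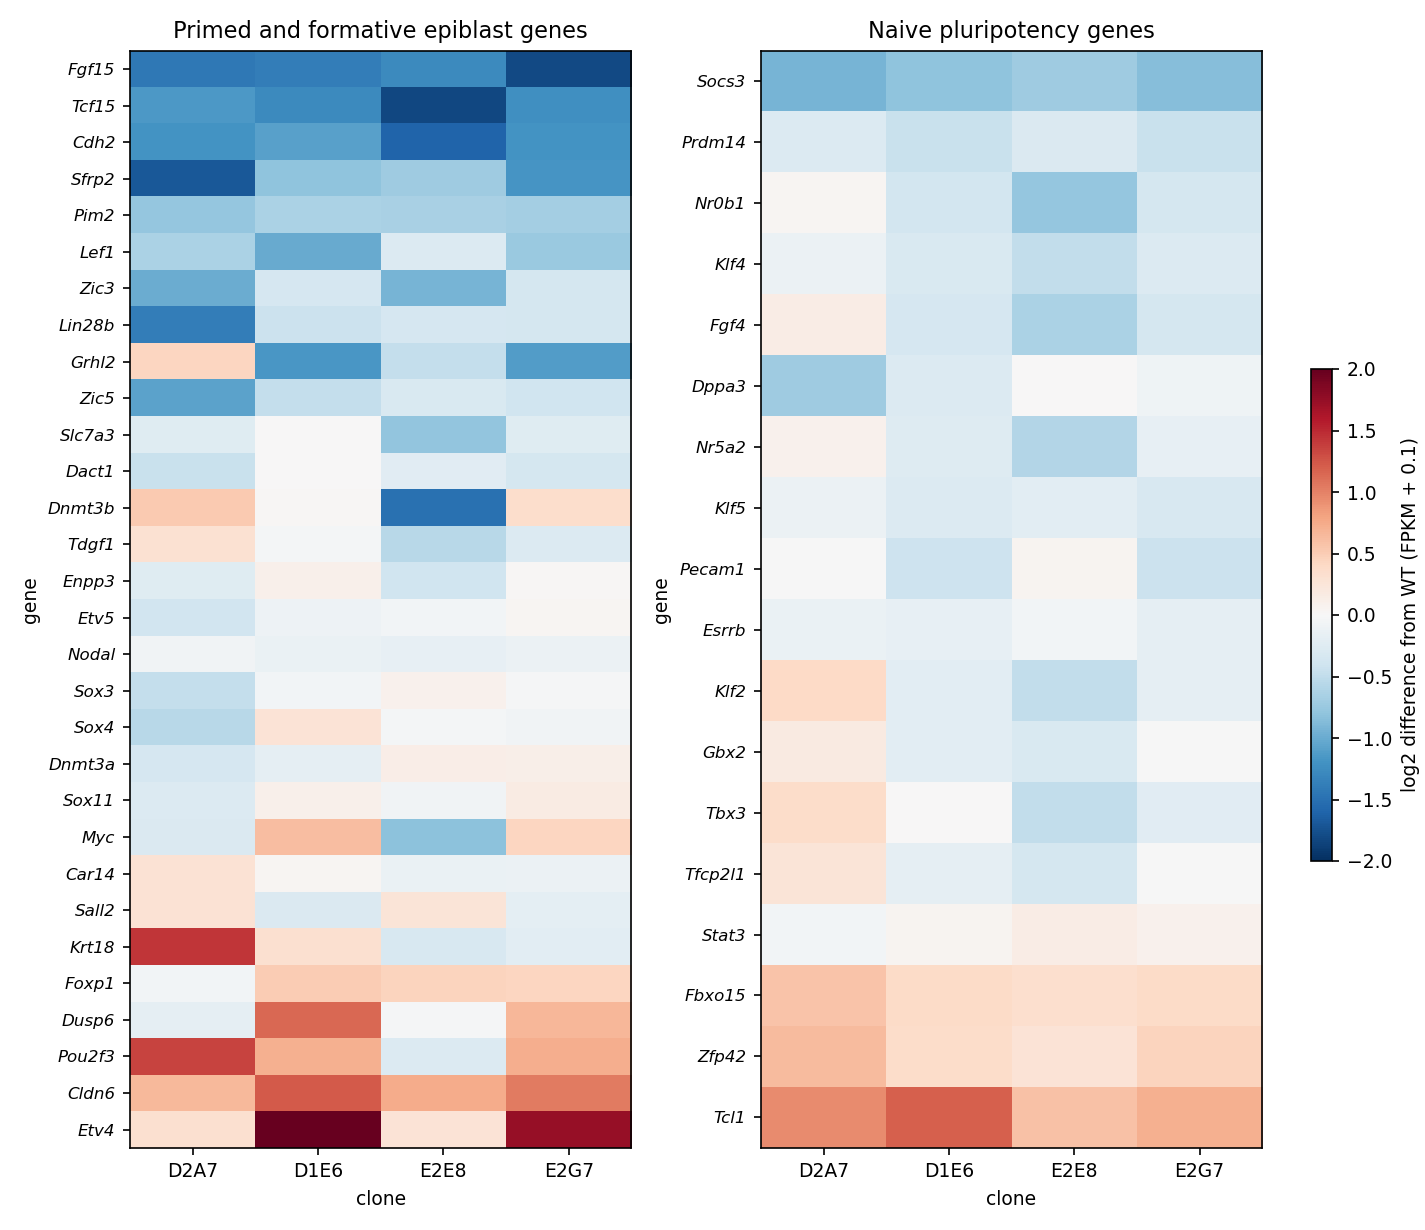
Log2 difference from WT of line means (colour, which saturates at 2 in either direction) for the listed primed and formative genes and the naive genes (rows, ordered by their mean) in the 4 clones (columns). *Fgf15*, *Tcf15*, *Cdh2*, *Sfrp2* and *Pim2* are lower in all clones, and *Cldn6* and *Tcl1* are higher in all.

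Relatives of the 9 factors in the POU, SOX, SALL, OTX, ZIC and FGF families were read as well. Of 23 tested, 1 rose and 2 fell in *Dnttip1* KO and 0 rose and 5 fell in *Elmsan1* KO. The lists overlap, and the calls of *Pou2f3* and *Fgf15* were also counted with the primed and formative genes. Among all genes, 3.26% were called higher and 3.25% lower in *Dnttip1* KO, and 2.74% and 3.68% in *Elmsan1* KO. The list's median changes were -0.21 and -0.32, beside 0.024 and 0.00302 over all genes. *Sox21*, a neural SOX gene, was at 2.81 and 2.37 FPKM in WT, 2.03 and 1.96 in D2A7, and from 0.514 to 0.676 in the other 3 clones. *Pou3f2*, a neural POU gene, was at 0.951 and 0.687 FPKM in WT, 0.514 and 0.712 in D2A7, and from 0.0234 to 0.171 in the others, and its *Elmsan1* KO call (-2.20, adjusted p = 0.0156) was lost with the estimated correlation (adjusted p = 0.277). *Sall3* fell by 1.71 in *Elmsan1* KO (adjusted p = 0.0305) and was at -0.68 in *Dnttip1* KO (adjusted p = 0.147), and the knockouts differed by 1.03 (adjusted p = 0.296), which met the thresholds on the unadjusted p. The *Sall3* call was lost without either WT library and with a pseudocount of 1 FPKM. *Fgf17* was called lower in both (-1.11 and -0.82, adjusted p = 0.0582 and 0.0123), and the *Dnttip1* KO call was lost with the estimated correlation (adjusted p = 0.341), without either WT library and without D2A7 library 2. Like *Otx2*, *Sox21* was called lower in D1E6, E2E8 and E2G7 and not in D2A7 (-0.37), and D2A7 was above D1E6 by 1.45 (adjusted p = 5.96e-05). *Pou3f2* was likewise higher in D2A7 than in D1E6, by 1.82 (adjusted p = 0.00238).

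Markers of other cell types were counted beside the 3.26% of all genes called higher and 3.25% lower in *Dnttip1* KO and the 2.74% and 3.68% in *Elmsan1* KO. Of 6 primitive endoderm markers tested, 2 rose in *Dnttip1* KO (*Lama1* by 0.70 and *Col4a1* by 0.77, both basement membrane genes) and 0 were called in *Elmsan1* KO by limma. The *Col4a1* call was lost with the estimated correlation (adjusted p = 0.220) and without either WT library. The 9 listed summed to 19.1 FPKM in both WT libraries, 29.5 to 32.9 in *Dnttip1* KO and 23.7 to 29.1 in *Elmsan1* KO. Most of this sum was *Lama1*, at 16.7 and 16.8 FPKM in WT, so it does not describe the list as a whole. Of the mesendoderm markers, 5 were tested. *T* was called lower in both knockouts (-1.16 and -0.95, adjusted p = 0.0225 and 0.0571), and both calls were lost with the estimated correlation (adjusted p = 0.308 and 0.464) and without WT library 1, that in *Elmsan1* KO in 7 of 16 alternatives, also without WT library 2 or either E2G7 library. In *Elmsan1* KO *Gsc* fell by 1.52 and *Eomes* rose by 0.70. *Gsc* was at 3.79 and 4.13 FPKM in WT, 4.17 and 4.09 in D2A7 and from 1.21 to 1.64 in the other clones, and D2A7 was above D1E6 by 1.43 (adjusted p = 3.81e-05). The 7 mesendoderm markers summed to 6.63 and 7.02 FPKM in WT, 5.20 to 6.86 in *Dnttip1* KO and 4.75 to 5.37 in *Elmsan1* KO. *Eomes* was also the only trophoblast marker called, among 5 tested in *Dnttip1* KO and 3 in *Elmsan1* KO. That list of 7 summed to 38.5 and 39.2 FPKM in WT and from 26.9 to 39.7 in the KO libraries, and most of the sum was *Tfap2c* (35.7 and 36.5 in WT). Of 4 neural markers tested, 1 was called higher in each knockout, *Nes*, an intermediate filament gene, which went from 3.99 and 4.23 FPKM to between 6.003 and 13.0 (adjusted p = 0.0178 and 0.0636). The *Nes* call in *Elmsan1* KO was lost in 8 of 17 alternatives, among them the replicate block and without either WT or either E2G7 library. The 7 neural markers in the table summed to 58.7 and 62.4 FPKM in WT, 83.9 to 95.3 in *Dnttip1* KO and 50.8 to 96.7 in *Elmsan1* KO. Here most of the sum was *Tubb3*, at 53.9 and 57.9 FPKM in WT, so it too does not describe the whole list. Of 2 fibroblast markers tested, 0 were called in either knockout by limma. The part of any of these cell types in the levels of the 9 factors was not tested.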

How the data were processed

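Stranded total RNA of WT, *Dnttip1* KO and *Elmsan1* KO mESCs was sequenced paired-end on Illumina instruments, and which of them ran each library is not stated. The authors mapped the reads to NCBIM37, used HT-seq for gene counts and deposited FPKM values, and for their own tests they used TMM in edgeR 3.16.5 with voom and limma. The methods name GENCODE vM20, but 97.2% of gene identifiers are in GENCODE vM1, which gave positions and exon lengths. FPKM values are scaled by exon length and library total but not for composition, so libraries were divided by median-ratio factors over 11270 genes (from 0.964 to 1.01), and log2(FPKM + 0.1) was tested with limma 3.58.1 (R 4.3.3, moderated test with a variance trend), for genes that reached 0.1 FPKM in 2 or more libraries. A call needed an unadjusted p under 0.01 and a 1.5-fold change. KO comparisons used only the libraries compared, and clone contrasts a single fit of all 10. Fragments were recovered from the FPKM steps, of which 98.1% to 98.3% under 100 steps were whole within 0.01. The fits were also run on simulated data with noise within lines only and no difference between clones. Those runs therefore cannot show how the KO comparisons behave when clones differ. Figures were made with Python 3.11.15 and matplotlib 3.10.9.

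All 9 factors are named. From each list, counts are given for genes tested and called, and up to 6 genes called in at least 1 KO comparison are named, those with the largest mean absolute change over both. The nearest patterns are the 3 genes with the smallest root mean square difference over the 5 line means, for factors whose means span at least 1. *Sox21*, the D2A7 contrasts of list genes and the clone counts of the core partner and naive lists were singled out after their values were seen. The 9 factors and all lists were chosen with earlier results of these data known. The alternatives are listed with their effects in the closing part. Intervals of fragments cover counting error only.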

Additional observations from a re-analysis of the deposited data

Results flagged for a closer look

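Values that stood apart among the 9 factors were 1 library and 5 differences between clones. *Sox2* in *Elmsan1* KO had 1 library, E2E8 library 1 at 132 FPKM, below the other 3 at 137 to 138. The gap was 0.866 of the group's range (above Dixon's critical value for 4 libraries, which chance exceeds in about 1 of 20 groups). This rule was applied to each of the 9 factors in both knockouts, and the 4 libraries are pairs from 2 clones. The clones of a knockout, compared directly with each other, differed by limma's test in *Otx2* (1.88) and *Utf1* (-0.64) for D2A7 against D1E6, and in *Otx2* (-1.85), *Utf1* (-0.68) and *Sall4* (-0.66) for E2E8 against E2G7. Each of these 5 differences is larger than the spread between the libraries of a line.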

How the results depend on the processing

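The count of called factors in *Dnttip1* KO (1, *Zic2*) became 0 with a threshold of 0.05 on the adjusted p, without the variance trend, with a correlation between libraries from the same clone, and with the replicate block. It ranged from 0 to 1 when single libraries were left out, being 0 without WT library 1, WT library 2 or D2A7 library 2. Without D2A7 library 1 it stayed at 1, but *Zic2* was lost and *Utf1* called in its place (0.85, adjusted p = 0.0732). In *Elmsan1* KO (1, *Otx2*) the count became 2 with a pseudocount of 0.01 FPKM or quantile normalization, which added *Zic2*, and was 2 without either E2G7 library. Without either WT library the *Otx2* call was lost. Without WT library 2 *Zic2* was called in its place (-0.66), and without WT library 1 *Zic2* was not called (-0.50). For E2E8 against WT (2) it was 1 with a pseudocount of 1 FPKM and ranged from 1 (without WT library 1) to 3 when libraries were left out. For D2A7 against D1E6 (2) it ranged from 1 (without D2A7 library 1) to 2. Counts in the other comparisons stayed within 1.5 times of those reported under the alternatives run, which also included a pseudocount of 1, only genes of at least 1 FPKM, no filter, FPKM as deposited, a fit of all 10 libraries, voom on recovered fragments, and, for clones, a fit of 2 lines.

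Replicate numbers did not pair the libraries: deviations of same-numbered libraries correlated between -0.139 and 0.192 over the 10 pairs of lines (12215 genes). The correlation within clones was estimated at 0.704 in the *Dnttip1* KO and 0.768 in the *Elmsan1* KO comparison, where the adjusted p of *Zic2* became 0.223 in *Dnttip1* KO. Directions that reversed all belonged to uncalled values: without single libraries, *Pou5f1* ranged from -0.12 to 0.0049 in *Dnttip1* KO and from -0.031 to 0.096 in D2A7, *Otx2* from -0.077 to 0.030 in D2A7, and *Sall4* from -0.0073 to 0.15 in D1E6. *Pou3f1* ranged from -0.025 to 0.12 between the knockouts (-0.087 with quantile normalization), from -0.36 to 0.074 in E2E8, and from -0.13 to 0.30 for E2E8 against E2G7. The cause was not tested. With a pseudocount of 1 FPKM, *Otx2* in E2E8 was at -2.79. Depth limits *Fgf5* and *Pou3f1*, and the 2 clones per knockout limit every KO comparison.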
